A study of Mus musculus with 6 samples.

Results

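Cultured cardiomyocytes given a 6-mer oligo hyaluronan (o-HA) were compared with untreated cardiomyocytes on Illumina MouseRef-8 bead arrays, 2 arrays in each group. These 4 arrays were all that carry either title among the 6 of the series, and they were normalized and fitted without the 2 arrays of cells given hyaluronan of 1000 kDa. The o-HA group was HL-1 cells in Claycomb medium to which hyaluronan chains of 6 sugars had been added for a day, and the untreated group was HL-1 cells in the same medium without hyaluronan. HL-1 is a single cell line that descends from an atrial tumour of a mouse carrying the SV40 large T antigen under the promoter of atrial natriuretic factor, and it divides in culture while keeping features of atrial muscle. Per the methods, the line was maintained in medium with serum and norepinephrine, so both groups came from adrenergically stimulated cells. The design asks whether short hyaluronan chains around cardiomyocytes alter their transcription. Of the 25697 probes on the array, 5635 were tested, those that 2 or more of the 4 arrays detected (detection p-value under 0.05). They covered 4479 named genes, and 342 of them carried no gene symbol.

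Hyaluronan is an unbranched chain of alternating glucuronic acid and N-acetylglucosamine that fills the space around cells. Cells bind it through CD44 and through RHAMM, the product of Hmmr, take it up, and break it down with hyaluronidases in lysosomes. Short fragments are known in other cell types to act on the same receptors, and on Toll-like receptors, in a different way from long chains.

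The o-HA arrays had mean bead intensities of 125.1 and 131.8 and the untreated arrays of 140.9 and 121.6, with 5443 to 5763 detected probes and a median of 41 beads per probe. The log2 values correlated at 0.988 between the o-HA replicates and 0.987 between the untreated replicates, and at 0.978 to 0.985 between arrays of different groups. The o-HA arrays lay at places C and D of 1 chip and the untreated arrays at F and G, so chip place and group cannot be told apart. The labelled cell type fitted its markers in part. Of 14 atrial cardiomyocyte markers on the array 10 were detected on all 4 arrays, among them Myl4, Nppa and Tnnc1, while Ryr2 and Gata4 were detected on 0. All 8 fibroblast markers were detected on 0 arrays.

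No single probe separated the groups beyond the adjusted threshold. By limma, 0 of 5635 probes (0%) had an adjusted p-value under 0.05, and the lowest adjusted p was 0.0762, shared by 10 probes. Before adjustment 412 probes higher with o-HA (7.31%) and 388 lower (6.89%), 800 in all, had a p-value under 0.05. Of all probes tested, 132 were at least 1.5-fold higher and 122 at least 1.5-fold lower, and the median log2 difference was 0.001.

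**Figure D1:**
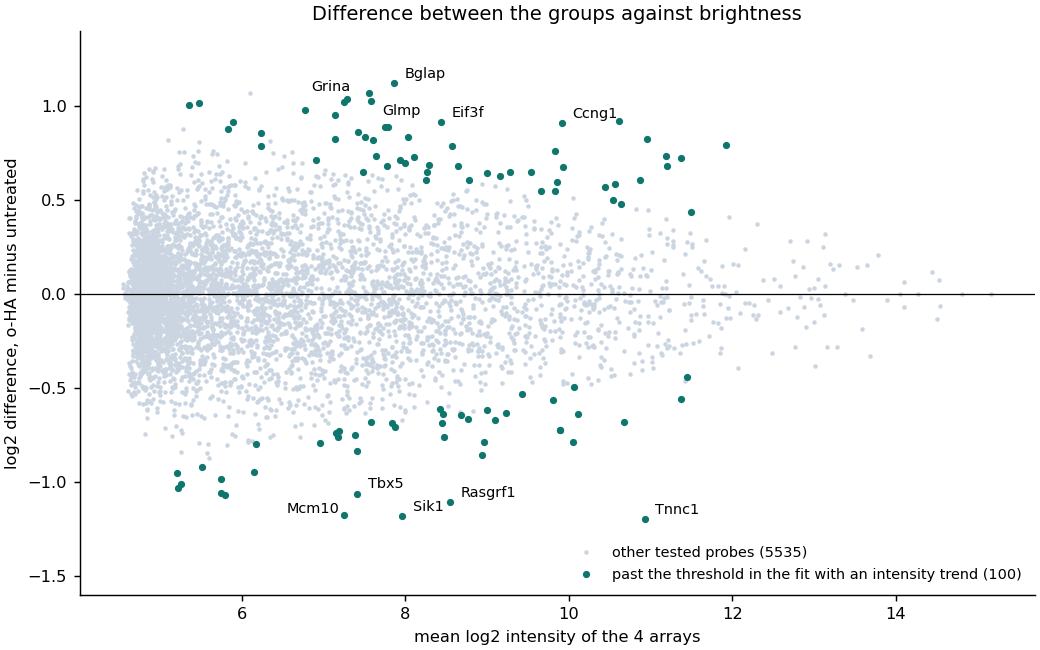
Log2 difference (o-HA minus untreated, y axis) against the mean log2 intensity of the 4 arrays (x axis) for the 5635 tested probes. Dark points are the 100 probes past the threshold when the prior variance may follow intensity; they lie outside 0.439 in either direction, and the labelled probes include Tnnc1 at -1.20 and Bglap at 1.12.

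The count of 0 depended on how the spread of a probe was estimated. The median SD between replicates was 0.189 among the 1879 dimmest probes, 0.185 among the middle 1878 and 0.133 among the 1878 brightest. When the prior variance was allowed to follow intensity, 100 probes of 92 genes (1.77%) passed, 56 higher and 44 lower with o-HA, of which 85 were among those brightest probes and 0 among the dimmest. Each of the 20 probes named in the following paragraphs was among the 100. Leaving out untreated replicate 1 gave 112 probes, leaving out untreated replicate 2 gave 22, and leaving out either o-HA array gave 0. In these fits 1 group has a single array, which is assumed to vary like the arrays of the other group.

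**Figure D2:**
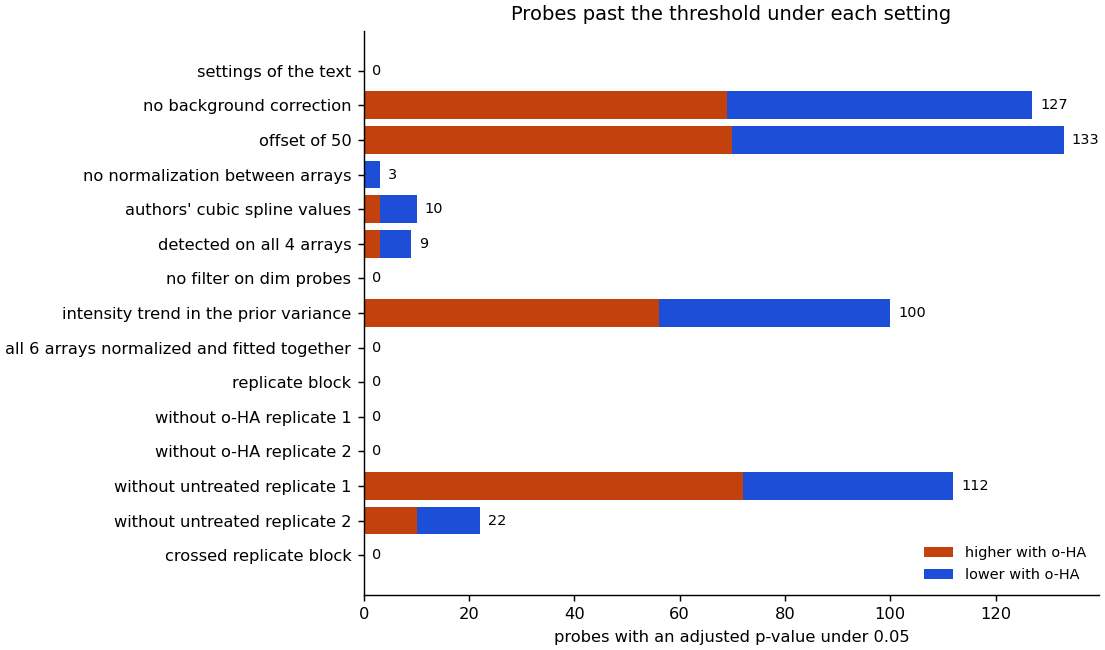
Number of probes with an adjusted p-value under 0.05 (x axis) in the fit of the text and under each alternative (y axis), split into probes higher and lower with o-HA. The number runs between 0 and 133.

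The 10 probes of smallest p-value above untreated cells are given as values, since none passed. Grina, a membrane protein of the family that holds back cell death and sets endoplasmic reticulum calcium, stood at 8.07 and 8.11 on the log2 scale on the o-HA arrays, against 7.10 and 6.93 on the untreated arrays. This is a log2 difference of 1.07 (SE 0.17, adjusted p = 0.0762, limma, 2 arrays against 2). Glmp, a glycosylated protein of the lysosomal membrane, stood at 8.09 and 8.11 with o-HA, against 6.96 and 7.18 untreated (difference 1.03, SE 0.18). Both genes were close to 1 value within each group and about 1 unit apart between groups. Renbp, the epimerase that interconverts N-acetylglucosamine and N-acetylmannosamine, stood at 7.92 and 7.61 with o-HA and at 6.76 and 6.72 untreated (difference 1.02, SE 0.18). N-acetylglucosamine is also a building block of hyaluronan. Bglap, osteocalcin, stood at 8.66 and 8.18 with o-HA and at 7.40 and 7.19 untreated (difference 1.12, SE 0.20). The mouse genome carries near-identical copies of this gene, so the probe may read several of them.

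The remaining probes of this set had differences between 0.89 and 1.04. Slc6a6, the taurine transporter, stood at 5.92 and 6.05 with o-HA and at 5.17 and 4.77 untreated (difference 1.02, SE 0.19), and 1 of the untreated arrays did not detect it. Without background correction its difference was 0.50. Eif3f, a subunit of the translation initiation factor eIF3, stood at 8.96 and 8.82 with o-HA and at 8.02 and 7.93 untreated (difference 0.92, SE 0.17). Ass1, argininosuccinate synthase of arginine synthesis, had 8.26 and 8.23 with o-HA and 7.36 and 7.33 untreated (difference 0.89, SE 0.17), the tightest replicates among these genes. Ccng1, cyclin G1 and a target of p53, had 10.30 and 10.44 with o-HA and 9.53 and 9.38 untreated (difference 0.91, SE 0.18). Tfrc, the transferrin receptor that brings iron into cells, had 11.15 and 10.99 with o-HA and 10.27 and 10.04 untreated (difference 0.92, SE 0.18). The probe ILMN_2907655, which carries no gene symbol, had 7.69 and 7.93 with o-HA and 6.78 and 6.76 untreated (difference 1.04, SE 0.18). Adjusted p-values of the 10 probes lay between 0.0762 and 0.101.

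**Figure D3:**
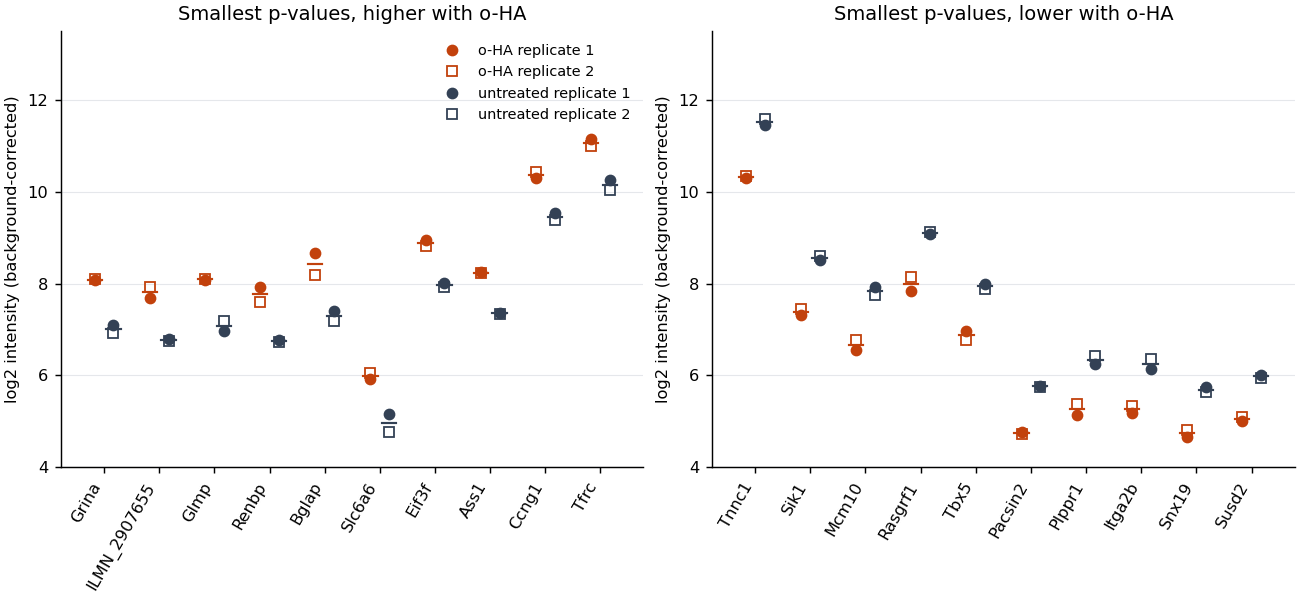
Background-corrected log2 intensity (y axis) on each of the 4 arrays for the 10 probes of smallest p-value higher with o-HA (left panel) and the 10 lower with o-HA (right panel), o-HA to the left of untreated. Short lines are group means of 2 arrays; Tnnc1 had group means of 10.33 with o-HA and 11.53 untreated, and no probe shown has overlapping groups because the choice required it.

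Below untreated cells, the probes of smallest p-value included the calcium sensor of the heart's thin filament and a heart transcription factor. Tnnc1, cardiac troponin C, which binds the calcium that starts contraction, stood at 10.31 and 10.35 on the o-HA arrays, against 11.46 and 11.59 on the untreated arrays (difference -1.20, SE 0.17, adjusted p = 0.0762, limma, 2 arrays against 2). In deposited intensity these values were 1197 and 1362 with o-HA and 3340 and 2860 untreated, with bead standard errors of 93.3 and 46.1, and 155 and 89.1. Tbx5, the T-box factor that specifies atria and conduction tissue, stood at 6.98 and 6.78 with o-HA and at 7.98 and 7.89 untreated (difference -1.06, SE 0.18). Both are read by 1 detected probe, so no second probe could be set beside them.

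Kinase, Ras and replication genes followed. Sik1, a salt-inducible kinase that responds to cyclic AMP, had 7.31 and 7.44 with o-HA and 8.52 and 8.59 untreated (difference -1.18, SE 0.17). Rasgrf1, a calcium-dependent exchange factor for Ras, had 7.85 and 8.15 with o-HA and 9.09 and 9.12 untreated (difference -1.11, SE 0.18). Mcm10, which helps the replicative helicase start at DNA origins, had 6.56 and 6.78 with o-HA and 7.93 and 7.76 untreated (difference -1.18, SE 0.18). All 3 probes were detected on every array. Plppr1, a membrane protein best known in neurons, had 5.14 and 5.38 with o-HA and 6.24 and 6.42 untreated (difference -1.07, SE 0.18). Itga2b, the platelet integrin alpha subunit, had 5.19 and 5.33 with o-HA and 6.13 and 6.36 untreated (difference -0.99, SE 0.18). Snx19, a sorting nexin of endosomes, stood at -0.95 (SE 0.17), with 1 o-HA array not detecting it, and Susd2, a sushi-domain membrane protein, at -0.92 (SE 0.17). Pacsin2, which bends membranes in endocytosis and at caveolae, was below the detection limit on both o-HA arrays and at 5.78 and 5.74 untreated, which is at least 1.98-fold lower with o-HA. That bound is the untreated mean over, for each o-HA array, the lowest signal among its detected probes, or the probe's own signal where higher. Without background correction the fitted log2 difference of Pacsin2 was -0.47, against -1.01 in the fit of the text, and those of Plppr1, Itga2b, Snx19 and Susd2 were -0.58, -0.53, -0.44 and -0.46. Adjusted p-values of these 10 probes ran between 0.0762 and 0.0953.

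Other probes of the named genes were not always as far apart. The second probe of Ccng1 had 8.29 and 8.61 with o-HA and 7.75 and 7.48 untreated (difference 0.84, SE 0.19), close to the first. A second probe of Rasgrf1 stood at -0.62 (SE 0.17) and a second of Plppr1 at -0.55 (SE 0.20), both in the direction of the first. Second probes of Glmp (0.25, SE 0.18), Itga2b (0.13, SE 0.22) and Snx19 (-0.01, SE 0.18) and a further probe of Rasgrf1 (-0.01, SE 0.19) were nearer 0. Which of these probes read the same transcript is not known from the files. Over all genes whose best probe had an unadjusted p under 0.05, the 245 other probes of 201 genes had the same sign as the best in 162 cases (66.1%), with a median of 0.108 in its direction against 0.508 for the best probes.

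Of 34 gene lists described by counts and medians, those with at least 5 tested genes and the highest medians were p53 targets, lysosomal genes and respiratory chain subunits, and those with the lowest were immediate early genes, glycolysis and integrins with matrix proteins. Each gene was represented by its brightest probe, and 490 different genes of the lists could be tested. Over all 4479 genes, the values of the groups did not overlap for 1021 genes higher (22.8%) and 1039 lower (23.2%) with o-HA, and the median difference was 0.003, with quartiles of -0.18 and 0.18. At an unadjusted p under 0.05 there were 328 genes higher and 311 lower of the 4479. No member of any list passed the adjusted threshold. Several lists hold genes that the study itself picked as changed on these arrays. Counts without such genes are given for the lysosomal, p53, replication, sarcomere, immediate early and initiation factor lists. The counts of the other lists include them. Medians without them were 0.08 for cytosolic ribosomal proteins, -0.08 for apoptosis regulators and 0.15 for respiratory subunits. A median nearer 0 after removal of the genes that the study had listed follows in part from removing the extremes.

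**Figure D4:**
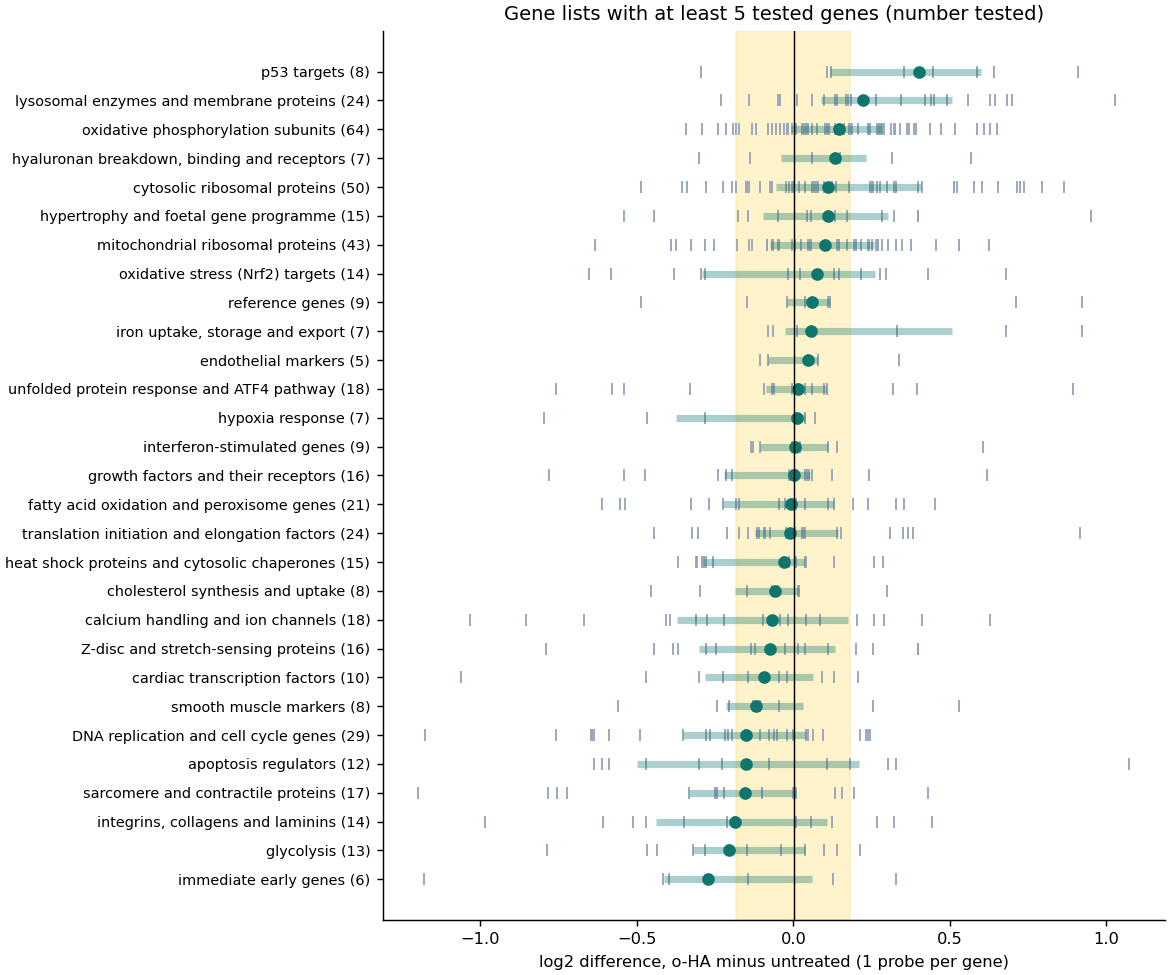
Log2 difference, o-HA minus untreated (x axis), of every tested gene (ticks) in the gene lists with at least 5 tested genes, sorted by median (points, with quartiles as bars); the yellow band spans the quartiles of all 4479 genes. The medians run between -0.27 for immediate early genes and 0.40 for p53 targets, and the p53 and lysosomal medians (0.22) lie outside the band on the high side, those of immediate early genes, glycolysis (-0.21) and integrins with matrix proteins (-0.19) on the low side. Without genes that the study had listed, the lysosomal median (0.17) and the immediate early median (-0.14) lie inside the band.

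Genes listed for the lysosome, the acid compartment in which cells degrade proteins, lipids and sugar chains, stood mostly higher with o-HA. Of 24 tested members 20 were higher and 4 lower, with a median log2 difference of 0.22 and quartiles of 0.09 and 0.51. The groups did not overlap for 13 members on the high side (54.2%) and for 1, Atp6v0e, on the low side (4.17%). Over all genes these shares were 22.8% and 23.2%. At an unadjusted p under 0.05 there were 10 higher and 0 lower of the 24, beside 328 and 311 of all 4479 genes. The list's median lay 0.31 and 0.31 above the untreated mean on the o-HA arrays, and at 0.02 and -0.02 on the untreated arrays. The study had listed 5 of these genes. Of the 19 others 15 were higher and 4 lower, 8 and 1 without overlap, with a median of 0.17.

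Members of several functional classes were among the higher ones. Of the membrane proteins, Lamp1, the most abundant glycoprotein of the lysosomal membrane, had 11.67 and 11.75 with o-HA and 11.23 and 11.31 untreated (difference 0.44, SE 0.17), and Cd63, a tetraspanin of late endosomes, had 9.27 and 9.78 with o-HA and 9.05 and 8.89 untreated (0.56, SE 0.21). Of the proton pump, the membrane-sector subunit Atp6v0d1 had 9.41 and 9.24 with o-HA and 8.68 and 8.68 untreated (0.64, SE 0.17). Its accessory protein Atp6ap2 had 5.34 and 5.40 with o-HA and 5.00 and 4.90 untreated (0.42, SE 0.17). All 4 genes had o-HA values above both untreated values. Lipid and sugar handling was represented by Smpdl3b, a membrane phosphodiesterase that acts on lipids (0.70, SE 0.18), Npc2, which carries cholesterol out of the lysosome (0.49, SE 0.21), Gm2a, the activator of ganglioside breakdown (0.45, SE 0.17), and Gaa, the acid alpha-glucosidase of glycogen (0.34, SE 0.17). Gnptg, a subunit of the enzyme that tags hydrolases with mannose 6-phosphate, stood at 0.63 (SE 0.17), and Cstb, cystatin B, which inhibits cathepsins, at 0.68 (SE 0.18). Cathepsin inhibition is the opposite of lysosomal degradation, so Cstb shares the list but not the compartment's activity. The list was drawn broadly, and membership does not mean that a product sits in the lysosome, as for Smpdl3b, Gnptg and Cstb. Asah1 at -0.23 (SE 0.19) and Galc at -0.14 (SE 0.21), enzymes of ceramide and galactosylceramide breakdown, were the lowest of the list.

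Many lysosomal genes carry in their promoters an element bound by TFEB, a transcription factor that switches on lysosome formation, and its core was read off the RefSeq promoters to show where it lies among these members. The letters searched were TCACGTG on both strands, which overlap the general E-box CACGTG, in windows of 250 bases before to 50 bases after a start in GRCm38.p6. Of the 24 members 22 had a window, and 7 of them (31.8%) held the letters, against 4.29% of the 27025 genes with a window, tested here or not. The longer TCACGTGA was in 4 of the 22 (18.2%), against 1.12% of all genes. These 4 are shown because they had unlike differences; the capitals mark the 8 letters.
Atp6v0d1: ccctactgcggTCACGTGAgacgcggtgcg
Gnptg: ccggctgtcacTCACGTGAccgtgagaccc
Ctsa: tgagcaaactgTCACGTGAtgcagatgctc
Atp6v0e: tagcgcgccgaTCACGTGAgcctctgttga
They lie at chr8:105566050-105566079 and chr17:25240120-25240149, both on the minus strand, and at chr2:164833749-164833778 and chr17:26676387-26676416 on the plus strand. Atp6v0d1 and Gnptg stood at 0.64 and 0.63, whereas Ctsa, a protective carboxypeptidase, stood at 0.14 (SE 0.19) and Atp6v0e, another pump subunit, at -0.04 (SE 0.17). The letters were thus found beside members on either side of the list's median. Because many lysosomal genes carry the element, its share in the list is not a result of these arrays. Whether TFEB acted was not tested.

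Targets of p53, the transcription factor that answers DNA damage and other stress, had the highest median of any list with at least 5 tested genes. Of 8 tested members 7 were higher and 1 lower, all without overlap between the groups (87.5% and 12.5%), with a median of 0.40. Besides Ccng1, Apaf1, the core of the apoptosome, had 9.37 and 9.09 with o-HA and 8.54 and 8.75 untreated (0.59, SE 0.19). Phlda3, an inhibitor of Akt, had 6.27 and 5.73 with o-HA and 5.45 and 5.27 untreated (0.64, SE 0.21). Mdm2, the ligase that degrades p53, had 11.11 and 11.28 with o-HA and 10.82 and 10.67 untreated (0.45, SE 0.18). Cdkn1a, the cell cycle inhibitor p21, stood at 0.35 (SE 0.17). The repair factor Ddb2, below the detection limit on both o-HA arrays, was at least 1.09-fold lower with o-HA in the fit of the text. Over the alternatives the fitted log2 difference of Ddb2 ran between -0.35 and -0.0. The large T antigen of the HL-1 lineage is known to bind p53. The study had listed 1 of the 8, and without it 6 stood higher and 1 lower (median 0.35). Apoptosis regulators did not share a direction, with 5 of 12 higher and 7 lower (median -0.15). Beside Grina, which was higher, stood Pawr at -0.61 (SE 0.17) and Hipk2 at -0.59 (SE 0.17), both known to favour cell death, and Birc5, survivin, at -0.64 (SE 0.18).

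**Figure D5:**
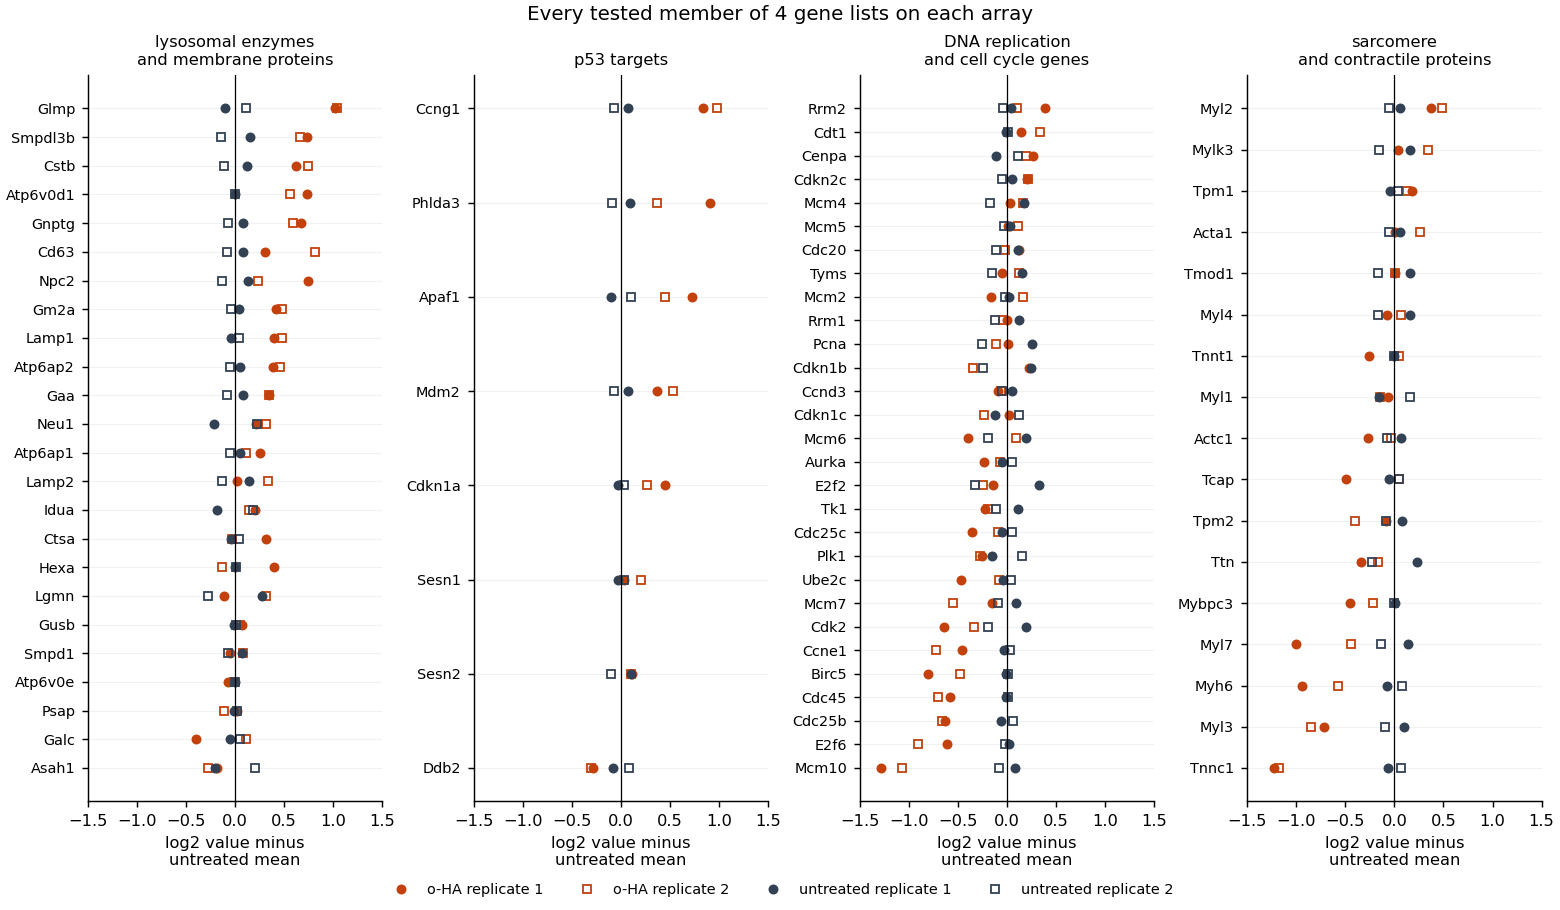
Log2 value of every tested member of 4 lists on each array, minus the member's untreated mean (x axis); o-HA arrays in orange and untreated arrays in dark blue, replicate 1 filled and replicate 2 open. Of the lysosomal members 13 of 24 have both o-HA values above both untreated values, and of the DNA replication and cell cycle genes 14 of 29 have both below. Among all genes 22.8% lie above and 23.2% below in this way.

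DNA replication and cell cycle genes were mostly lower with o-HA. Of 29 tested members 21 were lower and 8 higher, with a median of -0.15. The groups did not overlap for 14 on the low side (48.3%) and 4 on the high side (13.8%), beside 23.2% and 22.8% of all genes. At an unadjusted p under 0.05 there were 7 lower and 0 higher of the 29, beside 311 and 328 of all 4479 genes. After Mcm10 came E2f6, a repressor of the E2F family, with 8.24 and 7.96 with o-HA and 8.88 and 8.84 untreated (-0.76, SE 0.18). Cdc45, the helicase partner of the MCM ring, had 8.41 and 8.30 with o-HA and 8.99 and 9.01 untreated (-0.64, SE 0.17). Cdc25b, the phosphatase that starts mitosis, had 6.10 and 6.07 with o-HA and 6.67 and 6.79 untreated (-0.65, SE 0.17). In each of these 3 genes the o-HA values lay below both untreated values. The MCM ring itself was not uniformly lower, as the plot of list members shows Mcm4 and Mcm5 near 0. The study had listed 2 of the 29, and of the 27 others 19 were lower and 8 higher (median -0.11).

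Contractile proteins of the sarcomere stood at a median of -0.15, with 12 of 17 lower and 5 higher. Without overlap were 6 lower (35.3%) and 2 higher (11.8%), beside 23.2% and 22.8% of all genes. Next to Tnnc1 were light and heavy chains of myosin. Myl3, an essential light chain, had 5.75 and 5.62 with o-HA and 6.57 and 6.37 untreated (-0.79, SE 0.18), and Myh6, the alpha heavy chain, had 5.36 and 5.72 with o-HA and 6.23 and 6.37 untreated (-0.76, SE 0.19). Myl7, the atrial regulatory light chain, had 4.61 and 5.17 with o-HA and 5.75 and 5.48 untreated (-0.72, SE 0.22), and 1 o-HA array did not detect it. The ventricular light chain Myl2 went the other way, with 7.49 and 7.60 with o-HA and 7.17 and 7.06 untreated (0.43, SE 0.17). Without Tnnc1 and Myl3, which the study had listed, 10 of 15 were lower (median -0.10). Myl4 stood at -0.001 (SE 0.19) and Tpm1 at 0.15 (SE 0.17).

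Proteins around the sarcomere were divided. In the Z-disc list 7 of 16 were higher and 9 lower (median -0.07). Ldb3, which anchors the Z-disc, stood at -0.79 (SE 0.17) and the stretch sensor Fhl1 at -0.45 (SE 0.18), whereas Ankrd1 and Csrp3, which relay strain to the nucleus, stood at 0.40 (SE 0.18) and 0.40 (SE 0.18). Calcium handling and ion channel genes had 7 of 18 higher and 11 lower (median -0.07). P2rx1, an ATP-gated channel, stood at -1.03 (SE 0.19), with 1 o-HA array not detecting it, and Rrad, a GTPase that restrains calcium channels, had 8.46 and 8.57 with o-HA and 9.37 and 9.38 untreated (-0.86, SE 0.17). Sln, sarcolipin, the atrial inhibitor of the calcium pump, had 6.67 and 6.70 with o-HA and 7.31 and 7.40 untreated (-0.67, SE 0.17). Kcne1, a potassium channel subunit, was on the other side at 0.63 (SE 0.18). The pump gene Atp2a2 had probes at 0.29 (SE 0.19) and -0.27 (SE 0.18), which disagree in sign.

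Heart transcription factors were mostly lower and genes of the foetal programme mostly higher, with no test of either list. Of 10 tested factors 7 were lower and 3 higher (median -0.09), with Nkx2-5 at 5.72 and 5.41 with o-HA and 6.03 and 6.03 untreated (-0.47, SE 0.18) after Tbx5. In the hypertrophy and foetal gene list 10 of 15 were higher and 5 lower (median 0.11). Nppb, the brain natriuretic peptide that stretched or stressed heart muscle releases, had 7.73 and 7.51 with o-HA and 6.43 and 6.91 untreated (0.95, SE 0.21). It did not pass (adjusted p = 0.147, limma, 2 arrays against 2). Nppa, the atrial peptide, had 7.48 and 7.70 with o-HA and 7.52 and 7.32 untreated (0.17, SE 0.18), and its groups overlapped. Myh7, the foetal heavy chain of myosin in mice, was detected on 0 arrays.

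Ribosomal protein genes and respiratory subunits stood slightly higher by median, and initiation and elongation factors did not. Of 50 cytosolic ribosomal proteins 32 were higher, 16 lower and 2, Rps2 and Rplp1, at exactly 0 (median 0.11). Quantile normalization gives probes of equal rank the same value on every array, so these 2 values do not measure an absence of change. Without overlap were 21 higher (42%) and 8 lower (16%), beside 22.8% and 23.2% of all genes. At an unadjusted p under 0.05 there were 14 higher and 1 lower of the 50, beside 328 and 311 of all 4479 genes. Rps7 had 12.31 and 12.33 with o-HA and 11.33 and 11.73 untreated (0.79, SE 0.19), and Rps24 had 11.52 and 11.59 with o-HA and 10.95 and 10.68 untreated (0.74, SE 0.18). Rpl24 stood at 0.86 (SE 0.20) and Rps15 at 0.71 (SE 0.17). Ribosomal protein genes have many near-identical processed copies, so these probes may read more than 1 locus. Mitochondrial ribosomal proteins had 27 of 43 higher and 16 lower (median 0.10), with Mrps24 at 0.62 (SE 0.17) and Dap3 at -0.63 (SE 0.21). Only 3 higher and 1 lower of the 43 had an unadjusted p under 0.05, beside 328 and 311 of all 4479 genes. Initiation and elongation factors lay on both sides, with 12 of 24 higher and 12 lower (median -0.01), and 11 of 23 higher without Eif3f (median -0.02).

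Subunits of the respiratory chain and ATP synthase were higher in 47 of 64 cases and lower in 17 (median 0.15). The groups did not overlap for 21 higher (32.8%) and 4 lower (6.25%), beside 22.8% and 23.2% of all genes. Single members were modest. The complex I subunits Ndufb6, with 9.43 and 9.52 with o-HA and 8.87 and 8.82 untreated (0.63, SE 0.17), and Ndufb8, at 0.65 (SE 0.18), were the farthest from 0. Atp5l of ATP synthase stood at 0.61 (SE 0.18) and Cox8b, the heart and muscle form of a cytochrome oxidase subunit, at 0.59 (SE 0.18). At an unadjusted p under 0.05 there were 6 higher and 0 lower of the 64, beside 328 and 311 of all 4479 genes. Glycolysis stood on the other side, with 9 of 13 lower and 4 higher (median -0.21). Here 7 lower (53.8%) and 1 higher (7.69%) were without overlap, beside 23.2% and 22.8% of all genes. Pfkp, the platelet-type phosphofructokinase, had 8.29 and 8.84 with o-HA and 9.44 and 9.26 untreated (-0.79, SE 0.21), and Eno3, the muscle enolase, had 9.21 and 9.42 with o-HA and 9.80 and 9.77 untreated (-0.47, SE 0.18). Whether the lists differ from each other was not tested.

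Other metabolic and stress lists lay near the median of all genes. Fatty acid oxidation and peroxisome genes had 9 of 21 higher (median -0.01), with the peroxisomal genes Pxmp2 at -0.61 (SE 0.18) and Pex6 at -0.54 (SE 0.17). Cholesterol synthesis genes had 3 of 8 higher (median -0.06). The unfolded protein response and ATF4 list had 10 of 18 higher (median 0.01) and held both Ass1 and, on the low side, Trib3, a pseudokinase that ATF4 turns on (-0.76, SE 0.19). Heat shock proteins had 6 of 15 higher (median -0.03), hypoxia genes 4 of 7 (median 0.01) and Nrf2 targets 8 of 14 (median 0.08). Among the Nrf2 targets Nqo1, a quinone reductase, had 5.89 and 6.05 with o-HA and 6.56 and 6.68 untreated (-0.65, SE 0.18). Fth1, the ferritin heavy chain that stores iron, had 9.96 and 10.57 with o-HA and 9.76 and 9.42 untreated (0.68, SE 0.23), in the same direction as Tfrc. The iron list, Tfrc and Fth1 included, had 5 of 7 higher and a median of 0.06, with Slc11a2 at -0.08 (SE 0.17) and Iscu at -0.06 (SE 0.19).

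Of the genes that make and sense hyaluronan, few were detected. The synthases Has1 and Has2, the receptor gene Hmmr and the Toll-like receptor Tlr4 were detected on 0 of the 4 arrays, Has3 on 1 untreated array and Tlr2 on 1 o-HA array. Of 6 probes of Cd44 only 1 could be tested, at 4.85 and 4.73 with o-HA and 5.11 and 4.74 untreated (-0.14, SE 0.19), close to the detection limit. The hyaluronidase Hyal1 had 5.80 and 4.97 with o-HA and 4.97 and 4.67 untreated (0.57, SE 0.26). The o-HA replicates of Hyal1 lay farther apart than o-HA replicate 2 and the untreated arrays did. Hyal2, the surface-anchored hyaluronidase, had 6.19 and 5.92 with o-HA and 5.80 and 5.68 untreated (0.31, SE 0.18), and Cemip2, a further surface protein tied to hyaluronan breakdown, stood at -0.30 (SE 0.17). Of the 7 tested genes of breakdown, binding and receptors 5 were higher and 2 lower (median 0.13).

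Targets of Toll-like receptor and interferon signalling were mostly undetected. A target raised above the detection limit on both o-HA arrays would have been tested. For the untested targets, a fall or a rise that stayed below that limit could not be seen. Of 29 NF-kB and Toll-like receptor targets on the array 4 could be tested, and of 28 interferon-stimulated genes 9. Of these 9 interferon-stimulated genes 5 were higher and 4 lower (median 0.005). Usp18, the first of them by p-value, stood at 0.61 (SE 0.21), with 1 untreated array not detecting it. Of the NF-kB and Toll-like receptor targets, Tnfaip2 stood at 0.55 (SE 0.18) and Irf1 at -0.47 (SE 0.18). Vcam1, an adhesion molecule, was detected on both o-HA arrays and 0 untreated arrays. It was at least 1.16-fold higher with o-HA in the fit of the text. Over the alternatives the fitted log2 difference of Vcam1 ran between 0.04 and 0.64. Growth factors and their receptors had 8 of 16 higher and 8 lower. Inha, the inhibin alpha subunit, had 5.72 and 5.76 with o-HA and 6.39 and 6.64 untreated (-0.78, SE 0.18), and Tgfb1 had 6.72 and 6.84 with o-HA and 7.11 and 7.52 untreated (-0.54, SE 0.19). The receptor kinase Axl stood at 0.62 (SE 0.18). Pdgfra, Pdgfrb and Tgfb2 were detected on 0 arrays, and Ccn2, a matrix-associated growth factor, stood at 0.04 (SE 0.26). Integrins, collagens and laminins had 8 of 14 lower and 6 higher (median -0.19). Of the 14, 7 lower (50%) and 2 higher (14.3%) were without overlap, beside 23.2% and 22.8% of all genes. The widely shared integrin subunit Itgb1 stood at -0.61 (SE 0.23) and the muscle laminin receptor subunit Itga7 at -0.47 (SE 0.19), while Itgb4 stood at 0.44 (SE 0.19). Of 6 tested immediate early genes 4 were lower, Sik1 first (median -0.27), and Srf among the 4 was detected on neither o-HA array. The study had listed 1 of the 6, and without it 3 of 5 were lower (median -0.14). Junb stood at -0.40 (SE 0.20), and Jund, which neither o-HA array detected, was at least 1.16-fold lower with o-HA in the fit of the text. Over the alternatives the fitted log2 difference of Jund ran between -0.61 and -0.05.

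Markers of other cell types were mostly undetected, and their part in the results was not tested. All sums given here are of deposited intensities before normalization, so they also follow the brightness of each array. The 8 fibroblast markers summed to 510 and 468 intensity units with o-HA and 499 and 471 untreated, all undetected. Of 6 smooth muscle markers 4 were detected on all arrays, with sums of 5014 and 6747 with o-HA and 8018 and 5587 untreated, and Myh11 and Cnn1 were undetected. Tagln, a marker of smooth and immature heart muscle, stood at -0.56 (SE 0.17), and Synm, an intermediate filament protein, at 0.53 (SE 0.22). Endothelial markers summed to 403 and 423 with o-HA and 398 and 390 untreated, with Pecam1, Cdh5 and Tie1 undetected, Kdr and Vwf each detected on 1 array and Tek on all 4, and leukocyte markers to 259 and 265 with o-HA and 287 and 269 untreated, with Ptprc, Lyz2 and Itgam undetected and Cd3e detected on all 4. Atrial markers summed to 9340 and 10576 with o-HA and 13948 and 9778 untreated, so the groups overlapped. Mlana, a melanosome protein best known from pigment cells, was detected on every array, with 11.36 and 11.39 with o-HA and 10.53 and 10.57 untreated (0.83, SE 0.17). The pigment genes Tyr, Tyrp1, Dct and Mitf were detected on 0 arrays, and Pmel, a melanosome matrix protein, on 3 of 4 (-0.19, SE 0.18).

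Common reference genes did not all lie near 0. The probes of Gapdh stood at -0.15 (SE 0.17) and -0.04 (SE 0.17), and those of Actb at 0.12 (SE 0.18), -0.25 (SE 0.18) and -0.07 (SE 0.34). The Actb probe at 0.12 had 14.38 on o-HA replicate 2 and on both untreated arrays. Deposited intensities there were 20536, 22508 and 19968, and quantile normalization gives equal ranks equal values. Hprt, a purine salvage enzyme, had 6.28 and 6.08 with o-HA and 5.57 and 5.36 untreated (0.71, SE 0.18), and Rplp0, a ribosomal protein, stood at -0.49 (SE 0.18), with 1 o-HA array not detecting it. Within an array, the standard error of the bead mean, carried to the log2 scale of the corrected values, had a median of 0.150 over the tested probes, and the SD between replicates a median of 0.168. The replicate SD was the larger for 3457 of 5635 probes. For the 20 named probes the median bead error was 0.0965 and the median replicate SD 0.108. Those 20 were chosen by small p-values without overlap, which favours a small replicate SD. Each estimate rests on 2 arrays in a group, and what limited precision was not tested. The spread between replicates was close to the error of reading the beads on a single array on that scale. The labels do not say whether replicates came from separate cultures, and p-values then reflect only how far these samples spread, which may be technical. With 2 arrays against 2, an exact permutation test of any single probe could not go below p = 0.333.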

How the data were processed

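RNA of the 6 HL-1 samples was amplified with the Illumina TotalPrep kit and hybridized to 1 MouseRef-8 beadchip. For every probe and array the authors deposited a bead intensity before normalization, exported from BeadStudio, whose version the submitters' processing notes give as 3.3. The same deposited table holds a detection p-value against negative control beads, the standard error of the bead mean and the bead number. A second deposited table holds the authors' intensity values after cubic spline normalization, on a linear scale, with 38.1% of values below 0. The background value subtracted there is not given in the sources used here, and it was used only as an alternative. The study's own test in BeadStudio was not rerun.

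Intensities of the 2 o-HA and 2 untreated arrays were background-corrected with neqc in limma 3.58.1 (R 4.3.3), with negative control levels that the function infers from detection p-values, and with an offset of 16, quantile normalized and put on the log2 scale. Group means were compared with lmFit and eBayes, which had 2 residual and 8.49 prior degrees of freedom, two-sided, with Benjamini-Hochberg adjustment over the 5635 probes tested. Every adjusted p comes from this limma fit unless another is named, and it was tested on simulated data. With 200 of 5635 simulated probes changed, 0 of the 200 were recovered at a log2 size of 0.5. At a size of 1, 166 were recovered, with 11 false calls. Symbols come from the platform annotation, updated through RefSeq. Of 25697 probes 23978 carried 1 symbol, 0 several and 1719 none. Intensities of different probes were compared only to choose the brightest probe of a gene and to group probes by brightness.

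The probes named were, since none passed, the 10 non-overlapping probes of smallest p-value on either side, every other tested probe of those genes, up to 4 members of each list by p-value, and a fixed panel of hyaluronan, cardiac, growth factor and reference genes. Further lysosomal, p53 target, iron, MCM and sarcomere members and the promoter letters were chosen after their values were seen. The comparison and the gene lists were chosen with earlier results of these data known. Alternatives changed the background correction, offset, normalization, filter on dim probes, variance model, arrays in the fit, replicate block, fold threshold, probe chosen for a gene, and left out each array in turn. The replicate numbers of the labels are not said to pair samples.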

Additional observations from a re-analysis of the deposited data

How the results depend on the processing

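The number of probes past the threshold, 0 in the fit of the text, was 127 with no background correction (69 higher, 58 lower), 133 with an offset of 50 (70 and 63) and 100 with an intensity trend (56 and 44). It was 9 among probes detected on all 4 arrays (3 and 6), 10 with the authors' cubic spline values (3 and 7, none of them among the 20 named), and 3 with no normalization between arrays (0 and 3). It stayed at 0 with no filter on dim probes, with a fold change of at least 1.5 as well, with the replicate block, where 625 probes had an unadjusted p under 0.05, and with all 6 arrays, where 77 did and the lowest adjusted p was 1.0, against 800 and 0.0762 in the fit of the text. Leaving out each array in turn gave 0 to 112. Same-numbered arrays deviated with a correlation of -0.109, and a block with crossed numbers, chosen after seeing the data, also gave 0 probes. The cause of these differences was not tested.

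The 20 named probes kept their sign under every alternative that could be computed for them. They were chosen on these same arrays for groups that did not overlap, so leaving out an array could hardly turn a sign. Their size was less stable, since 6 of the 20 moved by over 1.5 times, all without background correction (-0.58 to -0.44 for the 5 lower probes and 0.50 for Slc6a6) and with an offset of 50 (-0.66 to -0.50 and 0.57). Of the other probes given, 7 near 0 turned sign. Leaving out each array in turn, a second probe of Itga2b ran between -0.14 and 0.37, the third of Rasgrf1 between -0.22 and 0.21, the second of Snx19 between -0.11 and 0.093, a probe of Actb between -0.64 and 0.52, Cd44 between -0.35 and 0.047, Ccn2 between -0.39 and 0.49 and a probe of Gapdh between -0.073 and 0.0001. Rasgrf1 stood at 0.0012 with an offset of 50, Snx19 at 0.0046 without normalization and Gapdh at 0.0012 with the authors' values. Over the alternatives the list medians ran between 0.16 and 0.34 for lysosomal genes, 0.30 and 0.45 for p53 targets, 0.09 and 0.22 for respiratory subunits, 0.05 and 0.22 for cytosolic ribosomal proteins, -0.19 and -0.03 for replication and cell cycle genes, -0.28 and -0.09 for glycolysis -0.25 and -0.04 for sarcomere genes and -0.31 and -0.03 for immediate early genes. Of the 34 list medians 17 turned sign under some alternative, among them calcium handling (-0.24 to 0.05), iron (-0.10 to 0.37), hypoxia (-0.22 to 0.01) and the ATF4 list (-0.09 to 0.13). Signal over background limits what dim probes can show, and 0 of the 1879 dimmest probes passed with the trend.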
